A study of Mus musculus with 6 samples.

Results

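The genes described here encode the protein components of the mitochondrial ribosome. They were chosen by symbol, as the rows whose symbol is *Mrpl* or *Mrps* followed by a number and at most 1 letter and that are not classed as pseudogenes. There were 76 such genes among 28987 rows, 47 named *Mrpl* and 29 named *Mrps*, and all 76 passed a filter that asked for a mean linear value of at least 1 over the libraries, as did 15109 genes in all. The rule used no measured value. It does not reach components that carry other names, including *Mrpl57* and *Mrpl58*, which the table lists under the older symbols *Mrp63* and *Ict1*.

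RNA sequencing was performed on EGFP+ cardiac myofibroblasts, the activated fibroblasts that form scar tissue, taken from mice 4 weeks after a surgery that narrows the aorta and overloads the heart (transverse aortic constriction, TAC). Control mice carried a tamoxifen-inducible Cre (MerCreMer, MCM) knocked into the *Postn* locus and the Rosa26 eGFP reporter (*R26eGFP*), which Cre switches on. Mice labelled HSP47-deficient carried both of these alleles as well as loxP-targeted *Hsp47*, the gene for a collagen chaperone, named *Serpinh1* in the table, so that the controls shared the Cre, the reporter, the surgery and the drug. All mice were 8 to 10 weeks old at surgery and received tamoxifen. The labels put it at 100 mg/kg for injections and 40 mg/kg for the diet (the study's methods state other doses). The sort aimed at cells in which *Postn* had driven recombination, and its purity was not tested. Each group had 3 libraries. Control replicates 3 and 4 came from one sequencing run, called the first run here, and control replicate 2 and all 3 libraries labelled Hsp47-deleted came from another, called the second run. Group and run can therefore be told apart only through control replicate 2.

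Mitochondrial ribosomes translate the few mRNAs made from the mitochondrial genome, which encode membrane subunits of the respiratory chain and of ATP synthase. Their RNAs come from the mitochondrial genome, but all of their proteins are encoded in the nucleus, made in the cytosol and imported. The large subunit joins amino acids and holds the exit tunnel, whereas the small subunit decodes the mRNA. Some of the proteins have counterparts in bacterial ribosomes and others exist only in mitochondria. Heart muscle is rich in mitochondria, and inherited defects of several of these proteins, such as MRPL3 and MRPL44, are known for cardiomyopathy.

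By their place in ribosome structures, 49 of the genes encode large-subunit proteins and 26 small-subunit proteins. The remaining gene, *Mrps36*, keeps its ribosomal name although its product is known as a component of the 2-oxoglutarate dehydrogenase complex. Of the ribosomal proteins, 46 have a bacterial counterpart and 29 are specific to mitochondria. The genes lie on 17 chromosomes (GRCm38), so that they form no cluster, and the median length of their coding transcripts was 1047 bases, from 405 to 6073. Near-identical copies elsewhere in the genome exist for *Mrpl22*, *Mrpl23* and *Mrpl53*, and the exons of 31 members overlap those of another gene. The kit did not mark strand, so the values of these genes are uncertain to that extent.

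Values are on the log2(linear value + 1) scale of the deposited table, and a difference of 1 is a doubling of linear value + 1. Linear values summed to between 690499 and 855404 per library, and the depth in reads is unknown. *Serpinh1* itself was at 6.28, 6.10 and 7.60 in control replicates 3, 4 and 2 and at 6.87, 6.67 and 6.66 in the libraries labelled Hsp47-deleted, so the groups overlapped and the mean difference was 0.07 (limma, Benjamini-Hochberg adjusted p = 0.947). It was lower by label only within the second run, where the difference was -0.87. The table holds 1 value per gene and so does not show which exons it reflects. At the protein level, the study reports efficient loss of Hsp47 by Western blot of sorted EGFP+ myofibroblasts. Fibroblast markers (9 of 9 detected in every library) summed to 8070 to 11000 linear units in controls and 12600 to 14300 in the labelled Hsp47-deleted libraries. *Dcn* was the largest part of each sum. *Postn*, whose locus carries the Cre, was at 5.87, 5.86 and 6.12 on the log2 scale in control replicates 3, 4 and 2. It was at 10.22, 10.50 and 10.36 in the labelled Hsp47-deleted libraries, a difference of 4.41 (limma, adjusted p = 0.00337). Within the second run it was higher by 4.24. The study also reports *Postn* as induced in *Hsp47*-deleted myofibroblasts. Whether the sort took like cells in both groups was not tested. All 8 cardiomyocyte markers were detected in every library, at sums of 46.6 to 265 in controls and 175 to 279 in the other group. All 6 endothelial markers were detected too, at 85.9 to 209 and 141 to 204. In control replicates 3, 4 and 2 the sums were 102, 46.6 and 265 for cardiomyocyte markers and 142, 85.9 and 209 for endothelial markers. Control replicate 2 exceeded the mean of the first-run controls by a median of 1.82 over tested cardiomyocyte markers and 1.47 over endothelial ones. The same median was 1.04 over the members and 0.11 over all tested genes. Mural markers (5 of 5) summed to 160 to 285 in controls and 108 to 166 in the labelled Hsp47-deleted libraries. Leukocyte markers summed to 37.9 to 84.1 and 93.4 to 121. Of these 7, all but the defining marker *Ptprc* were detected in every library, and *Ptprc* was at 0 in all. The part of cell makeup in the values below was not tested, and in such pooled cells fewer cells of a type and less RNA per cell cannot be told apart.

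The comparison between groups asks whether the mitochondrial ribosomal protein genes differ in myofibroblasts of mice labelled Hsp47-deleted. No member passed after adjustment over all genes (limma, Benjamini-Hochberg adjusted p under 0.05: 0 of 76), against 0.245% of all tested genes, and the lowest adjusted p of a member was 0.193. At an unadjusted limma p under 0.05, 12 members (15.8%) were higher, against 14.5% of all genes, and 0 were lower, against 0.755%. The difference was positive for 71 members and negative for 5, against 11250 positive of all 15109 tested genes. Its median over the members was 0.60, with a range of -0.33 to 2.53. The median of all tested genes was itself at 0.36, so the median member lay 0.24 above it, and 53 of 76 members exceeded it. The groups were fully separate, with the controls lower, for 13 members (17.1%), against 18.3% of all genes, and with the controls higher for 0, against 1.50%. The members' shares were thus near those of all genes at the p thresholds and in the counts of separate groups, but not in the count of positive differences.

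A pair of features of the libraries moved with that upward shift. Mitochondrially encoded RNAs took 23.5% to 29.4% of the summed linear values in the controls and 4.70% to 7.23% in the libraries labelled Hsp47-deleted. The controls were not alike in this. In control replicate 2, *mt-Atp8* alone was at a linear value of 85429, against 3532 and 2669 in control replicates 3 and 4. *mt-Nd4l* was at 7995 in control replicate 2 and at 31204 and 45607 in control replicates 3 and 4. With the values rescaled to nuclear protein-coding genes, the members' median difference was 0.22 and that of all genes 0.01. Positive differences were then found for 53 of 76 members in place of 71, and for 50 of 76 after quantile normalization or centring on the median of all genes. The matching counts over all genes are not given here. With rescaling, the median of 0.01 puts all genes near an even split of signs. The relative shift of the members with rescaling stood at 0.21, and 3 members had an unadjusted limma p under 0.05, of which 2 were higher, against 7.7% of all genes in either direction. The other feature was control replicate 2. Without it, 25 of the 76 members passed at a Benjamini-Hochberg adjusted limma p under 0.05, all of them higher, as did 2768 of all tested genes. Leaving out any other library gave 0 such members. The count at unadjusted p under 0.05 was 39 of 76 without control replicate 2, a larger share than the 35.1% of all tested genes. It was 3 without control replicate 3 (6.04% of all genes) and 3 without control replicate 4 (8.82%). Without the libraries labelled Hsp47-deleted replicate 1, 2 and 3 it was 2, 5 and 4, against 8.47%, 7.1% and 12.7% of all genes.

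The larger split of these genes lay between the runs. Control replicate 2 was above both first-run controls for 54 members, and its difference from the mean of the first-run controls had a median of 1.04 over the members, against 0.11 over all tested genes. It reached 1 or more for 38 members. All 4 libraries of the second run were above both libraries of the first run for 43 members (56.6%), against 35.0% of all genes, and below both for 0, against 9.92%. The lowest of the 6 values fell in a first-run library for 64 of the 76 genes, in control replicate 3 for 38 of them and in control replicate 4 for 26, where *Mrps34* was listed at 0. Summed over the members, linear values were 786 and 897 in the first run, 1674 in control replicate 2, and 1847, 1606 and 1656 in the libraries labelled Hsp47-deleted. In these sums control replicate 2 stood within the range of the libraries labelled Hsp47-deleted, and the first-run controls stood well below all 4. As a share of the nuclear protein-coding sum, the members took 0.187% and 0.183% in the first run and 0.365% in control replicate 2. The libraries labelled Hsp47-deleted were at 0.322%, 0.273% and 0.248%, so control replicate 2 was above all 3 on that scale.

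**Figure D1:**
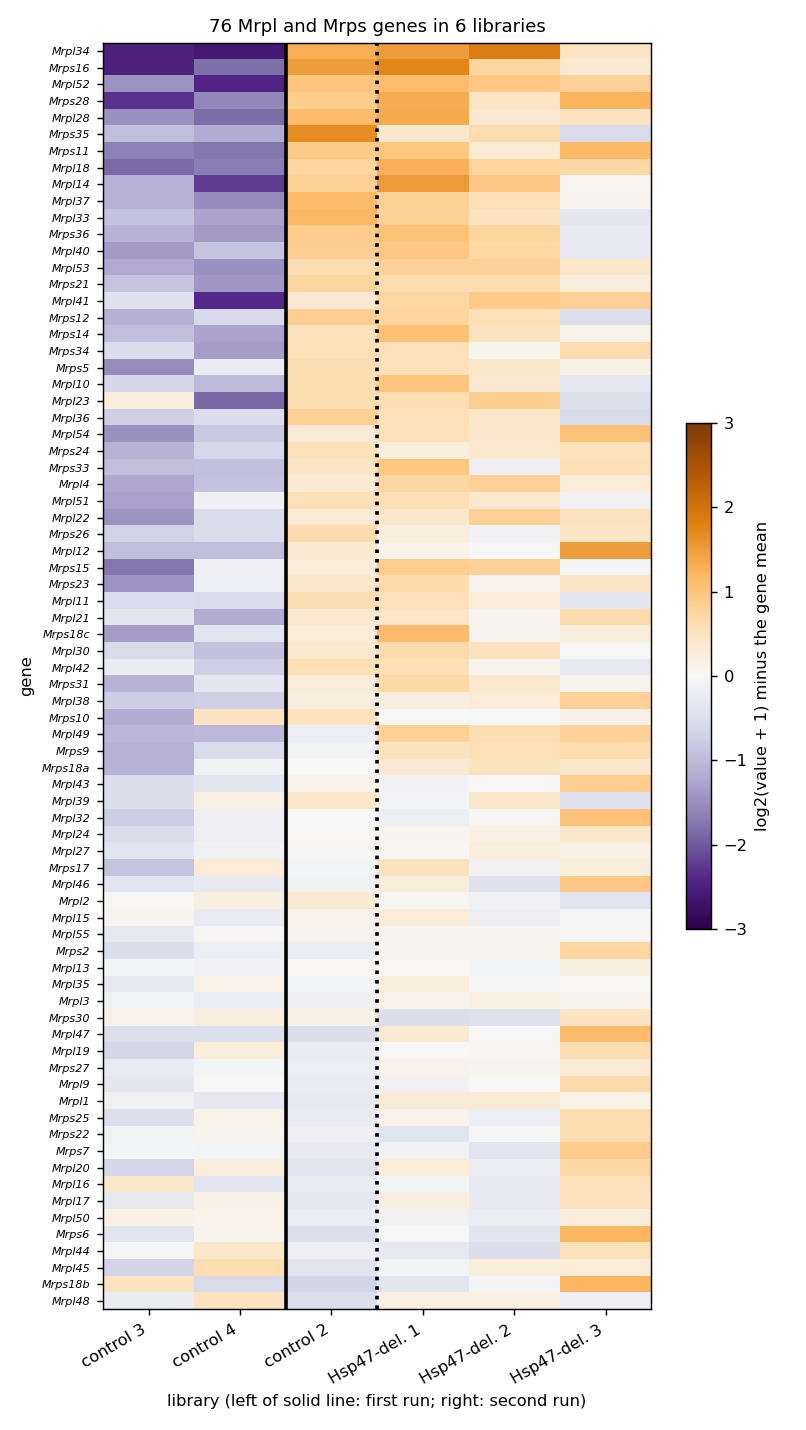
Each row is 1 of the 76 genes, ordered by the difference between control replicate 2 and the first-run controls, and each column is 1 library. Colour gives the log2(value + 1) minus the mean of that gene over the 6 libraries. In the upper rows the first 2 columns are low and the other 4 are high, and in the lower rows no such split is seen.

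With run added to the limma model beside the group, the run term passed a Benjamini-Hochberg adjusted p under 0.05 for 11 members (14.5%), against 3.94% of all tested genes, and all 11 were higher in the second run. At an unadjusted p under 0.05, 31 members (40.8%) were higher in the second run, against 17.7% of all genes. The 11 comprised 6 large-subunit genes (*Mrpl34*, *Mrpl52*, *Mrpl28*, *Mrpl18*, *Mrpl37* and *Mrpl53*) and 5 small-subunit genes (*Mrps16*, *Mrps28*, *Mrps35*, *Mrps11* and *Mrps21*), with run differences of 1.92 to 3.86. All second-run libraries were above all first-run libraries at each of the 11, and control replicate 2 lay inside the range of the libraries labelled Hsp47-deleted at 8 of them. Of these 11, *Mrps16* was named for its known role, *Mrpl18* and *Mrps28* for their small p in the pooled comparison, and the others after their values were seen. In this model the run term is the difference between control replicate 2 and the mean of control replicates 3 and 4, and so rests on 3 libraries, with the spread estimated from all 6. A deviation of control replicate 2 itself cannot be told apart from a difference between runs.

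*Mrpl34* and *Mrpl52* were the large-subunit genes with the largest difference between runs. *Mrpl34* (chr8:71464959-71465747), a homologue of bacterial ribosomal protein L34, was at 0.92 and 0.81 in the first-run controls, 4.73 in control replicate 2, and 4.90, 5.28 and 3.86 in the libraries labelled Hsp47-deleted. Control replicate 2 lay within the range of the latter, and both first-run controls were far below it. The run difference was 3.86 ± 0.60 (SE; limma adjusted p = 0.0223), and the difference within the second run was -0.04. *Mrpl52* (chr14:54426909-54429756), which encodes a mitochondria-specific protein, was at 4.74 and 3.74, then 7.16, then 7.28, 7.12 and 6.99 in the same order. Its run difference was 2.92 ± 0.46 (SE; limma adjusted p = 0.0244) and its difference within the second run was -0.02. Again the groups overlapped through control replicate 2 alone.

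Among small-subunit genes, *Mrps16* (chr14:20389304-20393634), a homologue of bacterial S16 whose loss in people causes a mitochondrial translation defect, was at 0.46, 1.14 and 4.45 in control replicates 3, 4 and 2. In the libraries labelled Hsp47-deleted it was at 4.71, 3.71 and 3.27. The 3 libraries were above the first-run controls and spread to both sides of control replicate 2, and the pooled difference of 1.88 ± 0.97 (SE, n = 3 per group) did not pass (limma, adjusted p = 0.384). *Mrps11* (chr7:78783119-78792989), the homologue of bacterial S11, was at 0.59, 0.47 and 3.15 in controls and 3.18, 2.50 and 3.38 in the labelled Hsp47-deleted libraries, the same arrangement. *Mrps35* (chr6:147042764-147073991) differed from these in 1 respect. It was at 1.59, 1.35 and 4.21 in controls and at 2.90, 3.18 and 1.98 in the libraries labelled Hsp47-deleted, so that control replicate 2 was above all 3 of them, by 1.53 on average.

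Within the second run, where 1 control library is compared with 3, the members showed no shift above that of other genes. The mean of the libraries labelled Hsp47-deleted exceeded control replicate 2 for 48 members and was below it for 28. Over all 15109 tested genes it exceeded control replicate 2 for 10850. The median difference was 0.12, against 0.29 for all tested genes, which placed the median member 0.17 below the median gene (-0.17), and 23 of the 76 members exceeded the median of all genes. No member was higher by 1 or more, and 1, *Mrps35*, was lower by at least 1. Control replicate 2 was inside the range of the libraries labelled Hsp47-deleted for 40 members, below all 3 for 23 (30.3%), against 46.7% of all genes, and above all 3 for 13 (17.1%), against 11.7%. The group term of the limma model with run had an unadjusted p under 0.05 for 2 members (2.63%), against 6.73% of all genes. They were *Mrpl49*, at 0.94 (Benjamini-Hochberg adjusted p = 0.69), and *Mrps35*, at -1.53 (adjusted p = 0.661). With a single control in that run, its own deviation cannot be told apart from a difference between genotypes.

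**Figure D2:**
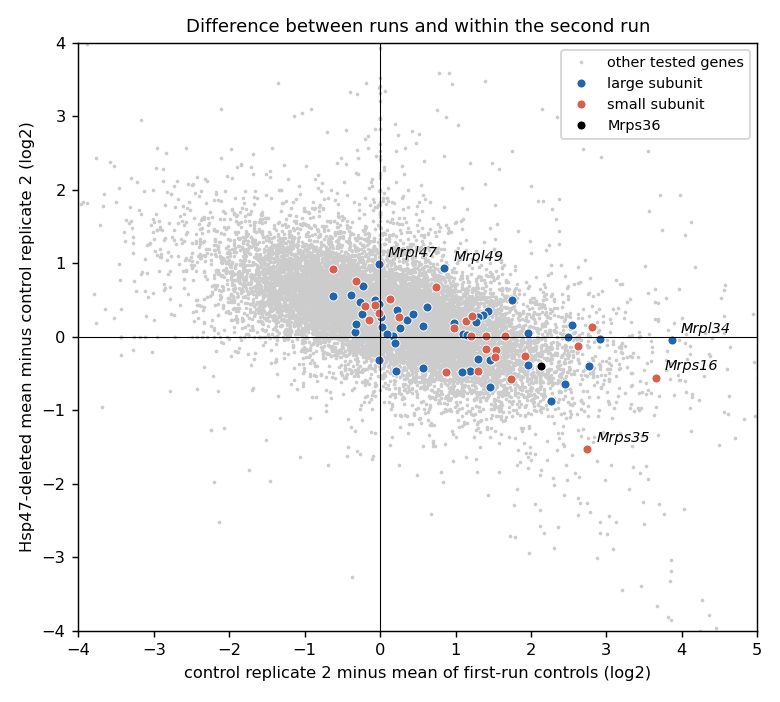
The horizontal axis gives control replicate 2 minus the mean of the first-run controls and the vertical axis the mean of the libraries labelled Hsp47-deleted minus control replicate 2, both in log2 units, for large-subunit genes (blue), small-subunit genes (red), *Mrps36* (black) and all other tested genes (grey; 96 lie outside the axes). Control replicate 2 enters both axes. Members extend far to the right along the horizontal axis, to 3.86 for *Mrpl34*, and stay within 1 of 0 on the vertical axis apart from *Mrps35*.

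The member with the smallest p in the pooled comparison was *Mrpl49* (chr19:6053622-6057785), which encodes a mitochondria-specific large-subunit protein. It was at 2.07, 2.08 and 2.93 in control replicates 3, 4 and 2 and at 3.94, 3.73 and 3.93 in the libraries labelled Hsp47-deleted. The groups did not overlap, and control replicate 2 was the highest control. The means were 2.36 ± 0.49 and 3.87 ± 0.12 (SD, n = 3), and the difference was 1.51 ± 0.35 (SE; limma p = 0.00254, adjusted p = 0.193; exact two-sided permutation p = 0.10, the smallest that 3 against 3 allows). Its exons overlap those of *Syvn1*, and it starts close to *Fau*, which is described below.

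*Mrps9* (chr1:42851233-42905683), the homologue of bacterial S9 in the head of the small subunit, was at 1.54, 2.10 and 2.56 in controls and 3.15, 3.24 and 3.30 in the libraries labelled Hsp47-deleted. Here too every labelled Hsp47-deleted library was above every control and control replicate 2 was the nearest control. The difference was 1.17 ± 0.35 (SE; limma adjusted p = 0.281) and fell to 0.67 against control replicate 2 alone. *Mrpl54* (chr10:81264713-81266934), a mitochondria-specific large-subunit gene, was at 2.10, 2.75 and 3.86 in controls and 4.11, 3.94 and 4.59 in the labelled Hsp47-deleted libraries, a pooled difference of 1.31 ± 0.48 (SE; limma adjusted p = 0.298). The groups were separate, but control replicate 2 was nearer to the other group than to either other control.

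*Mrpl4* (chr9:21002738-21008839), whose bacterial counterpart L4 lines the exit tunnel, was at 3.45, 3.79 and 4.99 in controls and 5.43, 5.48 and 4.94 in the libraries labelled Hsp47-deleted. *Mrpl18* (chr17:12911349-12916345), whose bacterial counterpart binds 5S rRNA, was at 1.94, 2.14 and 4.58 in controls and 5.09, 4.58 and 4.53 in the labelled Hsp47-deleted libraries. *Mrps28* (chr3:8802146-8923918), on the small subunit, was at 1.80, 2.56 and 4.98 in controls and 5.43, 4.58 and 5.34 in the labelled Hsp47-deleted libraries. At all 3 genes control replicate 2 lay inside the range of the other group, and the pooled differences of 1.21, 1.85 and 2.00 had adjusted limma p-values of 0.299, 0.30 and 0.306.

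*Mrpl47* and *Mrpl41* complete the 8 members with a positive difference and the smallest p. *Mrpl47* (chr3:32725397-32737605), whose product is the homologue of bacterial L29, was at 2.16, 2.15 and 2.14 in controls and 2.95, 2.63 and 3.78 in the libraries labelled Hsp47-deleted. It was the one of the 8 in which the 3 controls were alike in both runs, with a control SD of 0.0097, and the difference of 0.97 ± 0.37 (SE; limma adjusted p = 0.306) was not carried by the first-run libraries. Its exons overlap *Actl6a* and *Ndufb5*. *Mrpl41* (chr2:24974117-24975098), a mitochondria-specific large-subunit gene, was at 2.71, 0.76 and 3.48 in controls and 3.89, 4.06 and 3.97 in the labelled Hsp47-deleted libraries. The spread of its controls came from control replicate 4, and the difference of 1.66 ± 0.64 (SE; limma adjusted p = 0.307) did not pass. Of the 12 members with an unadjusted p under 0.05, control replicate 2 was the highest control in 11, all but *Mrpl47*, and the groups were separate in 6.

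**Figure D3:**
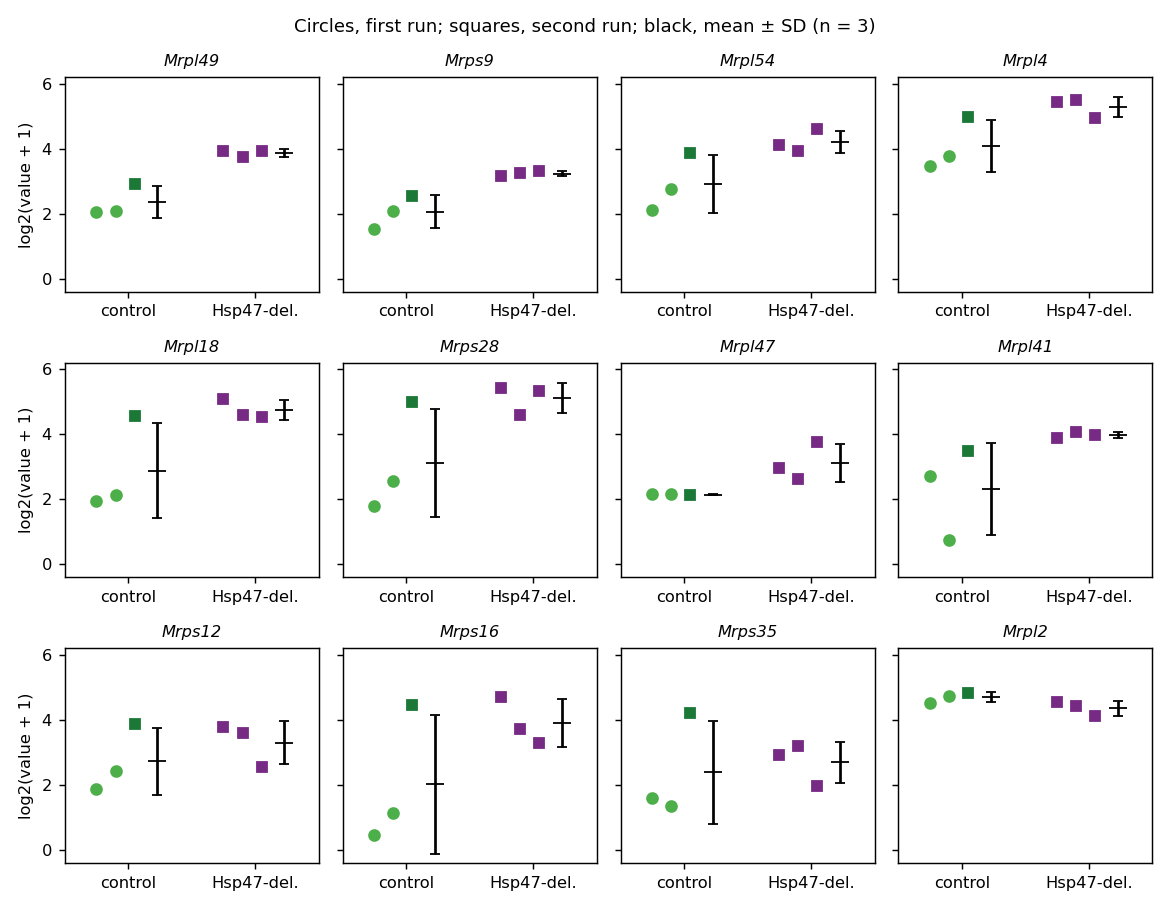
Each panel gives the log2(value + 1) of 1 gene in the 6 libraries, with controls at left (circles, first run; dark square, control replicate 2) and the libraries labelled Hsp47-deleted at right (purple squares); black bars give mean ± SD (n = 3). At *Mrpl18*, *Mrps28* and *Mrps16* the dark square lies among the purple squares, whereas at *Mrpl47* it lies with the other controls, and at *Mrps35* it lies above all 3 purple squares.

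The 5 members with a negative pooled difference were all large-subunit genes by structure, and none passed. *Mrpl2* (chr17:46646229-46650139), whose product lies by the peptidyl transferase centre, was at 4.53, 4.72 and 4.83 in controls and 4.55, 4.42 and 4.11 in the libraries labelled Hsp47-deleted, a difference of -0.33 ± 0.28 (SE; limma adjusted p = 0.572). *Mrps30*, which is named for the small subunit but sits on the large one, was at 2.85, 2.96 and 2.89 in controls and 2.25, 2.28 and 3.21 in the labelled Hsp47-deleted libraries (difference -0.32; adjusted p = 0.679). Both genes overlapped between groups, in *Mrps30* because replicate 3 labelled Hsp47-deleted was above all controls. *Mrpl44*, which encodes an RNase III-like protein, differed by -0.16, *Mrpl39* by -0.05 and *Mrpl50* by -0.04, with adjusted limma p-values of 0.860, 0.960 and 0.961, and the sign of each of these 3 turned under some of the alternatives tried.

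Among members with well-known roles, *Mrpl3* and *Mrps22* differed by little, and *Mrps2* by about the members' median of 0.60. *Mrpl3*, a core protein of the large subunit, was at 4.04, 3.92 and 3.99 in controls and 4.26, 4.29 and 4.21 in the libraries labelled Hsp47-deleted, a difference of 0.27 ± 0.26 (SE; limma adjusted p = 0.629) that was below the median of all genes although the groups did not overlap. *Mrps22*, mutated in inherited cardiomyopathy, was at 3.57, 3.73 and 3.50 in controls and 3.27, 3.62 and 4.28 in the labelled Hsp47-deleted libraries, which lay below, among and above the controls. *Mrps2*, a small-subunit homologue of bacterial S2, was at 3.25, 3.57 and 3.54 in controls and at 3.81, 3.82 and 4.50 in the labelled Hsp47-deleted libraries, which did not overlap (difference 0.59; adjusted p = 0.394). Together with *Mrpl3*, *Mrpl55*, *Mrpl13* and *Mrpl50* formed the 4 members whose 6 values spanned less than 0.5, and these 4 were identified after their values were seen.

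The genes of the stalk that recruits translation factors split between the runs. *Mrpl12* (chr11:120484613-120489065), which encodes the L7/L12 stalk protein and whose product also binds the mitochondrial RNA polymerase, was at 2.22, 2.22 and 3.48 in controls and 3.26, 3.14 and 4.66 in the libraries labelled Hsp47-deleted (difference 1.05 ± 0.54, SE; limma adjusted p = 0.381). *Mrpl11*, the gene of the protein at the stalk base, was at 1.46, 1.42 and 2.63 in controls and 2.57, 2.27 and 1.65 in the labelled Hsp47-deleted libraries (difference 0.33; adjusted p = 0.738). Both were lowest in the first run, and control replicate 2 was above all 3 labelled Hsp47-deleted libraries at *Mrpl11* and within their range at *Mrpl12*. *Mrps12*, the homologue of S12 at the decoding centre, was at 1.88, 2.41 and 3.88 in controls and 3.78, 3.59 and 2.53 in the labelled Hsp47-deleted libraries (difference 0.58; adjusted p = 0.640). Its direction was the opposite within the second run, at -0.58, as was that of *Mrpl11*, at -0.46. *Mrps36* was at 2.94, 2.66 and 4.93 in controls and 5.07, 4.78 and 3.77 in the labelled Hsp47-deleted libraries, the same split by run in a gene whose product is not ribosomal.

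The subunits were alike in direction, which was also that of 11250 of all 15109 tested genes. Over all tested genes, 15.2% had an unadjusted limma p under 0.05 in either direction. Of the 26 small-subunit genes, 26 had a positive pooled difference, with a median of 0.76, and 2 had an unadjusted p under 0.05. Of the 49 large-subunit genes, 44 had a positive difference, with a median of 0.54, and 10 had an unadjusted p under 0.05. Between runs the medians were 1.21 for the small subunit and 0.63 for the large one, and within the second run 0.07 and 0.13. Genes with a bacterial counterpart had a pooled median of 0.63 and mitochondria-specific ones 0.53. Among the 42 members free of copies and exon overlaps the pooled median was 0.75, the median between runs 1.09 and that within the second run 0.02. No test between these subgroups was made.

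The members varied more among controls than among the libraries labelled Hsp47-deleted. The SD was larger in controls for 55 of 76 genes, with a median SD of 0.68 against 0.38, where the corresponding medians over all tested genes were 0.53 and 0.36. As a description across the 76 genes, which are not independent, Pearson's r of the members' values was 0.95 between control replicate 2 and the library labelled Hsp47-deleted replicate 1, 0.94 with replicate 2 and 0.74 with replicate 3. It was 0.65 and 0.57 between control replicate 2 and control replicates 3 and 4, and 0.86 between the latter. Replicate 3 labelled Hsp47-deleted also stood somewhat apart from its own group, at 0.79 and 0.81, against 0.95 between replicates 1 and 2, and it held the highest value of 28 members.

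Other gene classes of the same organelle or function were set beside the members. Cytosolic ribosomal protein genes (74 tested) had a median pooled difference of 1.44, nuclear genes for oxidative phosphorylation subunits (73 tested) 1.02, and the 13 mitochondrially encoded mRNAs -1.73. Between runs, the medians were 1.56, 1.70 and -0.26 in that order, against 1.04 for the mitochondrial ribosomal protein genes. Within the second run they were 0.45, -0.15 and -1.62, against 0.12. The medians of the nuclear classes were thus all higher in control replicate 2 than in the first-run controls. The mitochondrially encoded mRNAs, which the mitochondrial ribosome translates, were lower by label within the second run for 13 of 13. In the limma model with run, their group term had an unadjusted p under 0.05 in all 13. In the same model 2 of the 76 members had such a p, *Mrpl49* higher and *Mrps35* lower. Of all 15109 tested genes 6.73% did, 825 higher and 192 lower. These classes were taken by gene name, and no test of the difference between them was made.

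**Figure D4:**
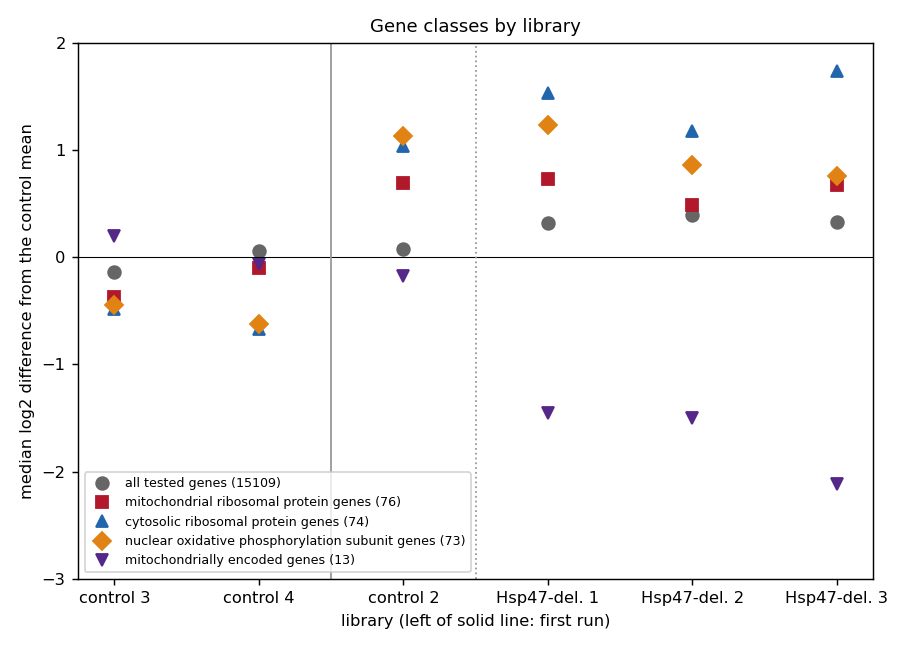
For each library, points give the median over the genes of a class of the log2 difference from the control mean of each gene. The mitochondrial ribosomal protein genes (red squares) lie at -0.37 and -0.10 in the first-run controls and at 0.69, 0.73, 0.49 and 0.67 in the 4 second-run libraries, whereas the mitochondrially encoded genes (purple) fall by 1.46, 1.50 and 2.11 only in the libraries labelled Hsp47-deleted.

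The remaining genes of mitochondrial translation were read from lists chosen by function. None of the genes in them passed after adjustment. For comparison, 11250 of all 15109 tested genes had a positive difference, and 15.2% had an unadjusted limma p under 0.05 in either direction. Of 5 mitoribosomal proteins with other names, 4 had a positive difference and 3 had an unadjusted limma p under 0.05. *Aurkaip1*, a small-subunit gene, was at 3.42, 3.17 and 5.28 in controls and 5.69, 5.72 and 5.85 in the libraries labelled Hsp47-deleted (difference 1.80; limma adjusted p = 0.281), and *Dap3*, which encodes the GTP-binding protein of the small subunit, was at 3.48, 3.16 and 3.98 in controls and 4.67, 4.40 and 4.53 in the labelled Hsp47-deleted libraries (difference 0.99; adjusted p = 0.283). *Gadd45gip1*, a large-subunit gene named after its values were seen, differed by 1.01. In all 3 the groups did not overlap. The genes *Ict1* and *Mrp63*, which the symbol rule missed, differed by 1.43 and 0.03, and *Ict1* was higher by 2.79 in control replicate 2 than in the first-run controls.

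Among 15 translation factors, 14 had a positive difference, with a median of 0.48, and 3 had an unadjusted limma p under 0.05. *Tsfm*, the gene of elongation factor Ts, was at 3.21, 3.79 and 3.44 in controls and 4.27, 4.71 and 4.41 in the libraries labelled Hsp47-deleted, a difference of 0.98 (adjusted p = 0.282) that was as large against control replicate 2 alone, at 1.02. *Gfm1*, the gene of an elongation factor G, differed by 0.87 (adjusted p = 0.306). Of 23 tested rows for ribosome assembly factors, 18 were positive and 1 had an unadjusted p under 0.05, the rRNA methyltransferase gene *Mrm1* (difference 1.27; adjusted p = 0.252), followed by the GTPase gene *Noa1* (0.65; adjusted p = 0.344). Of 18 genes for mitochondrial aminoacyl-tRNA synthetases and related enzymes, 13 were positive and 2 had an unadjusted p under 0.05, *Cars2* (1.32) and *Hars2* (0.95). Of 13 regulators of mitochondrial DNA and biogenesis, 9 were positive and 3 had an unadjusted p under 0.05. The positive shares of the assembly, synthetase and regulator lists were near that of all tested genes, at 11250 of 15109.

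Those regulators include *Tfam* and *Tfb2m*, the transcription factors of the mitochondrial genome. *Tfam* was at 2.97, 3.10 and 2.87 in controls and 3.86, 3.56 and 4.78 in the libraries labelled Hsp47-deleted, and *Tfb2m* was at 4.41, 5.02 and 4.41 in controls and 5.28, 5.39 and 6.53 in the labelled Hsp47-deleted libraries. At both genes control replicate 2 sat with the other controls and the groups did not overlap, unlike the arrangement of most members. The differences were 1.09 and 1.12, with adjusted limma p-values of 0.291 and 0.301. The medians of the assembly, synthetase and regulator lists, at 0.34, 0.25 and 0.20, were below that of all tested genes.

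The split between runs varied with transcript length. For the 20 members with a median transcript under 750 bases, the difference between control replicate 2 and the first-run controls had a median of 1.44. It was 0.69 for the 34 members of 750 to 1500 bases and 0.13 for the 21 over 1500 bases. Protein-coding genes as a whole showed the same order, at 0.63, 0.46 and 0.06. Over the 75 members with an annotated length, Pearson's r between the run difference and log2 length was -0.29 and that with GC content of the transcript 0.38, where members share the same libraries. Within the second run both were near 0, at 0.03 and -0.12. The long transcript of *Mrps16*, of 2572 bases, went with one of the largest run differences. With the trends on length and GC content removed from each library, an alternative added after the data were seen, the members' median pooled difference was 0.14 and that of all genes 0.00065. The part of length and GC content in the run difference was not tested further.

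**Figure D5:**
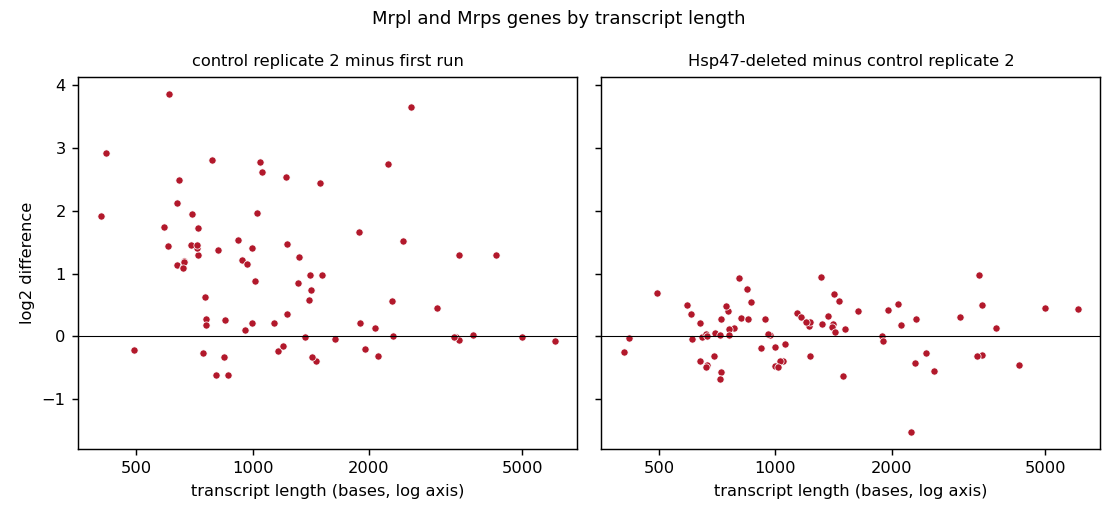
Each point is 1 of 75 members, placed by the median length of its coding transcripts on a logarithmic axis. At left, the difference of control replicate 2 from the first-run controls is highest among short transcripts, with a median of 1.44 under 750 bases against 0.13 over 1500 bases, and at right the difference of the libraries labelled Hsp47-deleted from control replicate 2 shows no such order.

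Genes for mitochondrial proteins are known to be controlled through promoters bound by NRF1, GABP (an ETS factor) and YY1. RefSeq promoters (GRCm38.p6, 250 bases before the start and 50 after it) were found for 67 of the 76 members and searched on both strands. The ETS letters CCGGAAG were present in 24 of them (35.8%), against 12.9% of 17491 protein-coding genes. The NRF1 core GCGCANGCG was in 15 (22.4%), against 9.63%, and the YY1 letters AAGATGGCG in 8 (11.9%), against 2.14%. CCAAT was in 27 (40.3%), against 42.3%, and TATAAA in 5 (7.46%), against 14.8%. The ETS letters end and the YY1 letters begin with AAG, so that a match of one can share 3 bases with a match of the other, and each match is a description. Members with the ETS letters had a median run difference of 1.25, against 0.74 for those without, and within the second run 0.08 against 0.12. The other motifs showed no common order in the run difference, which was 1.25 with the YY1 letters and 0.88 without, 0.74 with the NRF1 core and 1.04 without, 1.09 with CCAAT and 0.71 without, and 0.22 with TATAAA and 1.09 without.

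The 4 stretches below are upstream sequences of members described above, shown 5′ to 3′ on the strand of the gene and ending at the base before its RefSeq start, with the matched letters in capitals. *Mrpl34* (chr8:71464826-71464925, plus strand) and *Mrpl52* (chr14:54426809-54426908, plus strand) are the large-subunit genes with the largest run differences and hold the ETS letters, in *Mrpl52* on the opposite strand.
Mrpl34: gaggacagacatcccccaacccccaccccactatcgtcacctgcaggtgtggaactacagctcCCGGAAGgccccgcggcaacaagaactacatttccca
Mrpl52: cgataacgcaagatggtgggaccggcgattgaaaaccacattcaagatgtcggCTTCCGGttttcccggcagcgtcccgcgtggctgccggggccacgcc
*Mrpl12* (chr11:120484537-120484636, plus strand) is shown for the NRF1 core, which it holds on the opposite strand, and its last 24 bases lie in an exon of the GENCODE annotation. *Mrps12* (chr7:28741822-28741967, minus strand) is shown because these 146 bases lie between its RefSeq start and that of the divergent gene *Sars2*, which encodes the mitochondrial seryl-tRNA synthetase, and hold CCAAT 3 times. The GENCODE starts of this pair are 172 bases apart.
Mrpl12: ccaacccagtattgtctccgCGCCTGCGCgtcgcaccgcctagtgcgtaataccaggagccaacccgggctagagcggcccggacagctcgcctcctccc
Mrps12: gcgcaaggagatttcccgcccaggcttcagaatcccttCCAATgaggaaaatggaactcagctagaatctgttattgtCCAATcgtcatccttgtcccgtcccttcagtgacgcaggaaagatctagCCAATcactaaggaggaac

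Divergent neighbours of this kind were common, with 25 members starting within 1000 bases of a protein-coding gene on the other strand, or overlapping its start. *Mrps12* and *Sars2* differed between groups by 0.58 and 0.59, but *Mrps12* had a run difference of 1.73 and *Sars2* one of 0.30. *Mrps11* and *Mrpl46* are both members and overlap at their starts, with a start-to-start distance of -412 bases. *Mrps11* had a run difference of 2.62, and *Mrpl46*, at 1.90, 2.01 and 2.17 in controls and 2.52, 1.84 and 3.24 in the libraries labelled Hsp47-deleted, one of 0.22. The pair thus shared a start region but not the split between runs. *Mrpl49* lies by *Fau*, which encodes a fusion protein with the cytosolic ribosomal protein S30, and the pooled differences were 1.51 and 1.83. *Fau* was at 5.08, 5.24 and 7.20 in controls and 7.57, 6.98 and 8.46 in the labelled Hsp47-deleted libraries, so that it split by run, with a run difference of 2.04 against 0.85 for *Mrpl49*. *Mrpl36*, a large-subunit gene, and *Ndufs6*, which encodes a subunit of complex I, had run differences of 1.45 and 1.29 and differences within the second run of -0.68 and -0.54. Reads over shared exons cannot be assigned to a strand, and their part in these values was not tested.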

How the data were processed

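The authors deposited 1 table of log2 values per gene for 6 libraries. They amplified total RNA of sorted EGFP+ cells, and the submitters' processing notes name kallisto and mm10, while AltAnalyze is named in the study's methods. The deposited log2 values equal log2(linear value + 1), and the unit of the linear values is not given in the sources used here, so that counting error could not be computed. Columns with the authors' own group means, folds and p-values were not used. Genes with a mean linear value of at least 1 (15109, 13878 left out) were tested with limma 3.58.1 in R 4.3.3 (mean-variance trend, Benjamini-Hochberg adjustment over all of them) between 3 controls and 3 libraries labelled Hsp47-deleted, and by an exact two-sided permutation test for single genes (smallest p, 0.10). Run was taken from the sample titles. Nothing in the labels says that libraries came from separate mice, so p-values measure the spread between libraries, which may in part be technical.

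The members, lists and tests were chosen with earlier results of these data known. The genes named were the 8 members with a positive and the 6 with a negative difference that had the smallest p (5 were negative), 10 with a known role, and the 2 smallest p of each list; *Mrpl58* is listed as *Ict1*. Positions and lengths came from GENCODE M21 (GRCm38; 75 of 76 matched by identifier, *Mrpl33* not), and near-identical copies were sought with minimap2 2.31-r1302 (identity of at least 95% over 80% of the transcript). limma was tested on simulated data. The alternatives tried were a covariate for run, the second run alone, the replicate number as a block, filters, pseudocounts, scalings, no trend, and leaving out each library.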

Additional observations from a re-analysis of the deposited data

How the results depend on the processing

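The unit, hence depth, of the values is unknown, only 1 control library shares a run with the libraries labelled Hsp47-deleted, and no alternative separates that library from its genotype. In the main analysis 37 genes in all and 0 members passed at an adjusted limma p under 0.05. At an unadjusted p under 0.05 there were 12 members, against 15.2% of all genes in either direction. The members' median difference was 0.60, or 0.24 relative to all genes. With run as a covariate 2 members had an unadjusted p under 0.05, against 6.73% of all genes. The median was 0.12, or -0.17 relative to all genes, as it was in the second run alone. With the replicate number as a block (replicate block) the 37 became 0 and the 12 became 3. Deviations of same-numbered libraries correlated at 0.228 for replicate 3 and 0.156 for replicate 2, but with only 2 shared numbers the libraries share no more than a number. All genes passing were 13 with no filter and 16 with a pseudocount of 0.1, and the members' count was similar there. With quantile normalization, centring on the median, rescaling to nuclear protein-coding genes, and removal of length and GC trends (the last chosen after the data were seen), 17, 18, 16 and 18 genes passed, and 3, 4, 3 and 4 members had an unadjusted p under 0.05. The members' median was 0.19, 0.18, 0.22 and 0.14 in that order. The share of all genes at the unadjusted p is given above for rescaling, where it too was lower than in the main analysis. It is not given for the replicate block or the other scalings, so the drop from 12 members there cannot be set against all genes. Leaving out 1 library at a time, 8 to 2768 genes and 0 to 25 members passed, 2 to 39 members had an unadjusted p under 0.05, and the median ranged from 0.42 to 1.01, or from 0.13 to 0.62 relative to all genes, with the upper end of each without control replicate 2. No member passed in any other alternative.

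The direction of 9 of the named members turned under some alternative, none of them past the threshold in either. With run as a covariate *Mrpl44* was at 0.067, *Mrpl50* 0.18, *Mrpl11* -0.46, *Mrps12* -0.58, *Mrps16* -0.56 and *Mrps36* -0.39. With the replicate block *Mrpl44* was at 0.11, *Mrpl39* 0.040, *Mrpl50* 0.050 and *Mrpl11* -0.080. *Mrpl11*, *Mrpl3* and *Mrps22* were at -0.081, -0.11 and -0.30 with quantile normalization and at -0.086, -0.14 and -0.29 with centring, and *Mrpl3* and *Mrps22* at -0.12 and -0.26 with rescaling. With length and GC trends removed *Mrpl11* was at -0.21, *Mrps12* -0.32 and *Mrps22* -0.13. Leaving out 1 library at a time gave -0.17 to 0.051 for *Mrpl50*, -0.47 to 0.050 for *Mrpl44*, -0.31 to 0.15 for *Mrpl39* and -0.15 to 0.35 for *Mrps22*. The cause of these turns was not tested.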
